A study of Mus musculus with 12 samples.

Results

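Control XX gonads and control XY gonads at E12.5 were compared over the autosomes, to describe the gene programmes that separate an early ovary from an early testis. Members were taken as all transcript clusters of the array whose identifier places them on chromosomes 1 to 19, and 61635 of the 65956 transcript clusters met this rule. The clusters with exactly 1 gene symbol gave 28713 autosomal genes, each read from the cluster with the highest mean over the arrays. There were 4 control XX and 4 control XY arrays. All controls were labelled wild type and given in the study's methods as Amh+/+; Inhbb+/+ embryos. The methods give the background as C57BL/6 and derive the mice, dKO XY embryos lacking both genes included, from a cross of single Amh and Inhbb heterozygotes. No treatment was given. Gonads were collected on embryonic day 12.5, separated from the mesonephros, snap frozen and profiled on Affymetrix Clariom D arrays after RNA amplification and biotin labelling. A further 4 arrays of dKO XY gonads entered the fit only to share its estimate of spread. The methods count the 4 samples per group as biological replicates, and the sources used here give no litter and no number of gonads for a sample. The stage follows the labels, whereas the data statement of the study lists this series under the later of its 2 ages. The methods count 4 replicates per genotype on embryonic day 12.5 and more at the later age, and this series has 4 arrays per group. Each array holds the RNA of whole gonad tissue with all its cell types, so fewer cells of a type and less RNA per cell cannot be told apart.

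The XX and XY gonad start from the same ridge of NR5A1-positive cells. In the XY gonad a brief pulse of the Y-linked gene Sry switches on Sox9 in supporting cells, which become Sertoli cells, enclose the germ cells in cords and secrete anti-Müllerian hormone, desert hedgehog, FGF9 and prostaglandin D. In the XX gonad the supporting cells keep active WNT4, RSPO1 and beta-catenin signalling, leave the cell cycle and express Runx1, Foxl2 and Fst. They become pre-granulosa cells, while the germ cells prepare for meiosis.

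Values are log2 intensities as deposited, and a difference is control XX minus control XY on the log2 scale with its standard error (n = 4 arrays per group). A gene is said to rise or fall where limma gave an adjusted p under 0.05 over all transcript clusters. Arrays within a control group correlated at 0.981 to 0.992. The median negative control probe set lay at 6.36 and the 95th percentile of the negative controls at 10.28. Signal contrast, taken per array as positive control mean less negative control mean, was 3.41 ± 0.228 (SD) in control XX arrays (3.21 to 3.65) and 4.07 ± 0.317 in control XY arrays (3.70 to 4.44). All 4 control XX arrays were below all 4 control XY arrays (p = 0.0286 by an exact permutation test, two-sided, which cannot give less with 4 arrays on each side). The part of this shift in the differences was not tested beyond a fit with signal contrast as a covariate, which ended 37 of the 111 calls of named genes. Its values are given beside such genes or together after the gene groups. The median difference of all autosomal clusters was 0.117, and 0 after quantile normalization.

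Among genes past the adjusted test, the falls in the control XX gonad were more numerous and larger than the rises. Of 28713 autosomal genes, 197 rose in control XX gonads (0.686%) and 610 fell (2.12%). Among the 61635 transcript clusters the counts were 368 (0.597%) and 826 (1.34%), and 337 of these 1194 clusters had no symbol. The median change was 0.88 for the genes that rose and −1.01 for the genes that fell. A change of at least 8-fold was found for 2 genes that rose, Fst and Phlda2, and for 20 that fell. The split moved with the scaling and the fit. Of the called clusters 30.8% were higher in control XX, whereas after centring each array on its median 132 clusters rose and 771 fell, and after quantile normalization 284 rose and 695 fell. With array weights rises led, with 3117 clusters that rose and 2982 that fell. At an unadjusted p under 0.05 in limma 7981 clusters were higher and 5407 lower, while of the genes 3526 were higher and 3791 lower. By the arrays alone, all 4 control XX arrays were above all 4 control XY arrays for 2405 genes (8.38%) and below them for 2748 genes (9.57%).

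**Figure D1:**
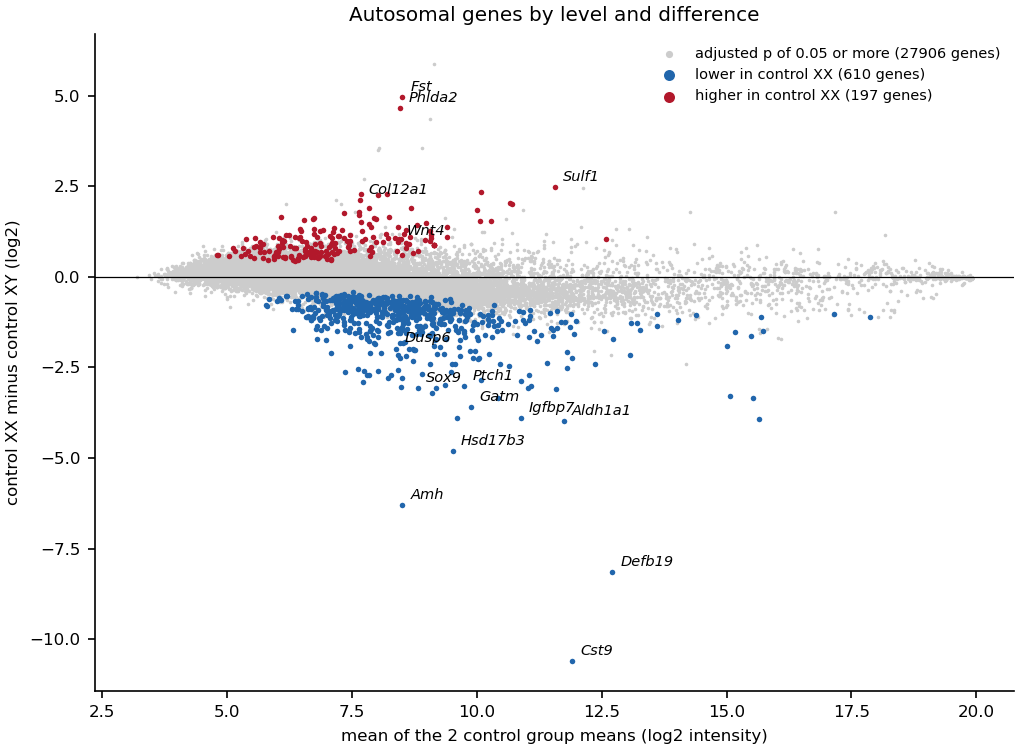
Difference between control XX and control XY (log2, vertical axis) against the mean of both group means (log2 intensity, horizontal axis) for 28713 autosomal genes, 1 point each. Blue points are the 610 genes that fell in control XX, red points the 197 that rose and grey points the rest. Cst9 and Defb19 lie furthest below 0, and Fst and Phlda2 are the highest of the red points.

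Sox9, the transcription factor that drives Sertoli cell differentiation, was 7.67, 6.91, 7.42 and 7.10 in the control XX arrays and 10.13, 10.68, 10.55 and 10.04 in the control XY arrays. The gap between the groups was wide, and Sox9 fell by 3.08 ± 0.23 in control XX gonads (adjusted p = 3.27e-05), an 8.43-fold difference. Its close relative Sox8, which acts beside Sox9 in Sertoli cells, fell by 1.05 ± 0.15 (adjusted p = 0.00302). Etv5, an ETS factor downstream of FGF signalling, fell by 1.48 ± 0.26 (adjusted p = 0.011), but not with signal contrast as a covariate (adjusted p = 0.169). In total 3 of 9 measured Sertoli cell transcription factors and upstream regulators fell (33.3%, against 2.12% of all autosomal genes). None rose, and the median difference of the list was −0.73. Without control XX 4, 5 of the 9 fell. Dmrt1, which maintains male identity in the postnatal testis, lay at 6.36 to 6.57 in control XX and 6.47 to 7.0 in control XY arrays, and these ranges overlapped (difference −0.30 ± 0.13, adjusted p = 0.206). Map3k4 and Gadd45g, which act upstream of Sry, differed by −0.73 and −0.78 without passing the test (adjusted p = 0.105 and 0.087).

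Products of Sertoli cells made the largest differences of the autosomes. Cst9, a cystatin known from Sertoli cells of the fetal testis, was 17, 17.54, 17.67 and 16.64 in the control XY arrays and 7.54, 6.42, 5.99 and 6.48 in the control XX arrays. Cst9 fell by 10.60 ± 0.41 (adjusted p = 9.59e-08), the largest change of any autosomal gene with a single symbol, and its control XX values lay around the median negative control. Defb19, a beta-defensin of Sertoli cells, was 16.63, 16.66, 17.21 and 16.63 in control XY and 8.16, 9.62, 8.27 and 8.53 in control XX arrays, a difference of −8.14 ± 0.51 (adjusted p = 1.66e-05). Defb36, a beta-defensin on the same list, differed by −0.23 (adjusted p = 0.363). Amh, the hormone that removes the Müllerian ducts, was 11.33, 11.40, 13.38 and 10.56 in control XY and 5.52, 5.45, 5.31 and 5.14 in control XX arrays, a difference of −6.31 ± 0.43 (adjusted p = 2.16e-05). Its control XX values were all below the median negative control, so the 79.3-fold difference is one of intensities and need not be the ratio of transcripts.

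Hsd17b3, which in the fetal mouse testis completes testosterone synthesis in Sertoli cells, was 10.92, 11.82, 12.85 and 12.10 in control XY and 6.99 to 7.37 in control XX arrays. It fell by 4.82 ± 0.31 (adjusted p = 1.66e-05). Ptgds, the prostaglandin D synthase that supports Sox9 expression, was 10.81, 11.51, 12.46 and 11.39 against 7.77, 7.27, 8.15 and 7.43, and fell by 3.89 ± 0.30 (adjusted p = 4.05e-05). Control XY 3, the array of highest signal contrast, held the highest value of Amh, Hsd17b3, Ptgds, Defb19 and Aldh1a1, while the groups stayed apart in all the other arrays. Of 36 measured Sertoli cell products 28 fell (77.8%, against 2.12% of all autosomal genes), none rose, and the median difference was −1.47 against 0.08 over all autosomal genes. The list was chosen with earlier results of these data known, so its share is a description and not a test. The other falls included Cbln4, a secreted cerebellin (−2.91 ± 0.23, adjusted p = 4.89e-05), the chemokine Ccl17 (−2.55 ± 0.25, adjusted p = 0.000211), the calcium-binding protein Tesc (−2.33 ± 0.17, adjusted p = 2.76e-05) and Aard (−1.74 ± 0.18, adjusted p = 0.000282). Fshr, the receptor for follicle-stimulating hormone, and Serpina5, a protease inhibitor, differed by 0.19 and 0.14 and did not pass (adjusted p = 0.424 and 0.595). Inhbb, the beta B subunit of activin and inhibin, did not overlap between the groups (6.49 to 6.97 against 7.10 to 8.02) but missed the threshold (−0.75 ± 0.18, adjusted p = 0.0532). When any 1 array was left out, 24 to 29 of the 36 products fell, and 19 fell with signal contrast as a covariate.

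**Figure D2:**
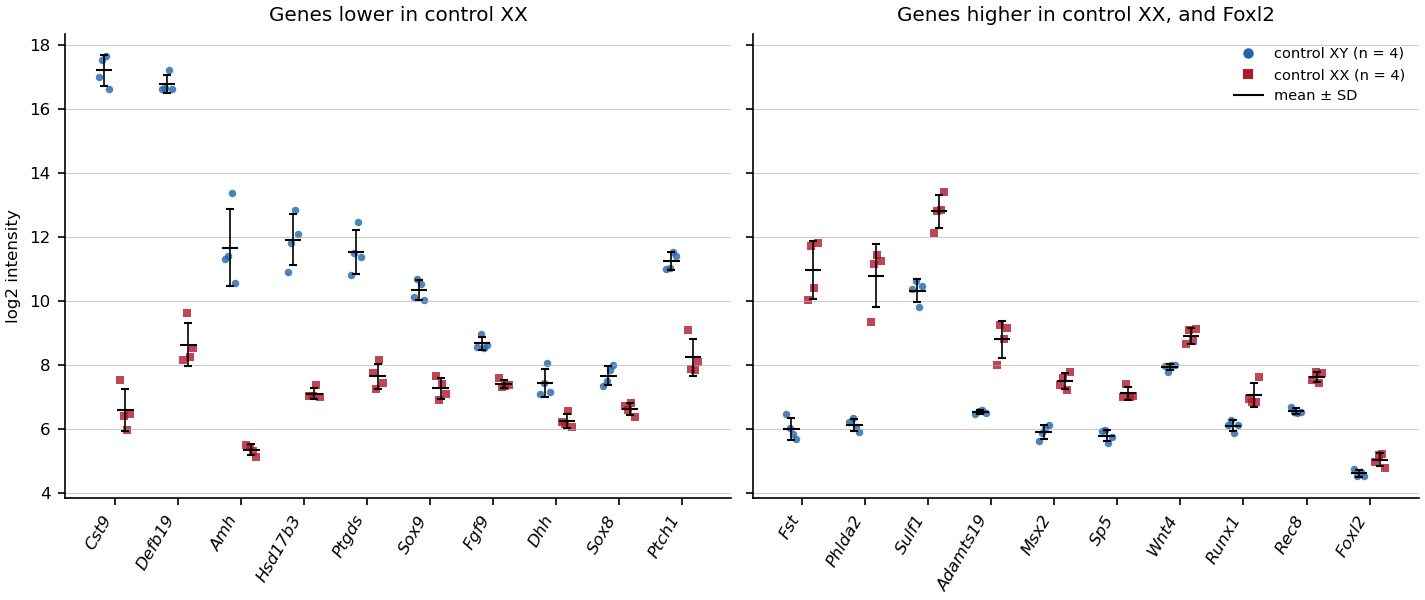
Log2 intensity of 20 genes (horizontal axis) in the 4 control XY arrays (blue circles) and the 4 control XX arrays (red squares), with mean ± SD as black lines. On the left, the groups of the 10 genes that fell are all apart, by most for Cst9 and Defb19. On the right, the groups of Fst and Phlda2 are furthest apart, and Foxl2 lies near 5 in both groups.

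To show where the strongest sex difference starts in the genome, the 250 bases before the annotated start (RefSeq, GRCm38.p6) are printed for Cst9, which fell most, for its neighbour and fellow cystatin gene Cst12, whose difference had the other sign but whose call was lost in 11 of the 12 fits without 1 array, for the retinaldehyde dehydrogenase Aldh1a1, and for Phlda2 and Sp5, which rose. Defb19, Amh and Fst are named only. Capitals mark the letters of 4 motifs, searched on both strands: AACAAT, the core bound by SOX factors, AAGGTCA, the site bound by single NR5A1 proteins, TCAAAG, the core bound by TCF and LEF factors, and AGATAA, the core bound by GATA factors. None of these motifs contains another.
Cst9 (chr2:148834897-148835146, plus strand): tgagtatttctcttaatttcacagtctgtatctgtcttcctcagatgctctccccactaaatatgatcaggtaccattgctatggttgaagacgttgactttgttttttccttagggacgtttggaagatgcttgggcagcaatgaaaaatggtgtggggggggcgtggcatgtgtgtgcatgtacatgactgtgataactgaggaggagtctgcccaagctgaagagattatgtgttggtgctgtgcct
Cst12 (chr2:148789115-148789364, plus strand): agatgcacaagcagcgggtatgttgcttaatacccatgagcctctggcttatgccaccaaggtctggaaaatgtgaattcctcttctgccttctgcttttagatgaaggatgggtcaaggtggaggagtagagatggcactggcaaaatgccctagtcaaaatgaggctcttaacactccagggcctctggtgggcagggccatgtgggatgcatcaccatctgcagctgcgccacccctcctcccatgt
Aldh1a1 (chr19:20492333-20492582, plus strand): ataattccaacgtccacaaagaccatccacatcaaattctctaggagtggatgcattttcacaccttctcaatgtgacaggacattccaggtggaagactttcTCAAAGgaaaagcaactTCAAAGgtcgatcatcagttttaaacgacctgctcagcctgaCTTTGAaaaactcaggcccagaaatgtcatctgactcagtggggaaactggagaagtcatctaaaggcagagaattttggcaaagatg
Phlda2 (chr7:143502525-143502774, minus strand): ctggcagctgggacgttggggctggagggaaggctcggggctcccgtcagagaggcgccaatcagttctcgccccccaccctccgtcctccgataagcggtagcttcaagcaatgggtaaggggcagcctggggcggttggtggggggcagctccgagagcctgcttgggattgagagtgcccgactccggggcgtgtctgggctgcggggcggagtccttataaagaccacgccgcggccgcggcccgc
Sp5 (chr2:70474673-70474922, plus strand): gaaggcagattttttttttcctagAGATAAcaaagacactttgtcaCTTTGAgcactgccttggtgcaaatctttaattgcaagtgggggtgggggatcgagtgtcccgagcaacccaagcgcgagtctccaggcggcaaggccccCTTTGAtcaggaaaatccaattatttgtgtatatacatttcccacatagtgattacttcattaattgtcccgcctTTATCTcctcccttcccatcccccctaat
Neither Cst9 nor Cst12 nor Phlda2 held any of the 4 motifs in this window, and nor did Hsd17b3, Lrrn1 and Actr6, which were searched but are not printed. Aldh1a1 has 2 listed starts, and only the first was used. It held TCAAAG 3 times, starting at −147, −130 and −88 from that start. Sp5, picked as a WNT target gene, held TCAAAG at −204 and −104 beside AGATAA at −226 and −29. Of 25748 autosomal promoters of this length in the table, 14.1% held TCAAAG, 10.2% AGATAA, 9.4% AACAAT and 4.1% AAGGTCA. Among the 15 of the 20 largest falls with a promoter in the table the counts were 3, 2, 1 and 0, and among the 12 of the 20 largest rises 0, 1, 0 and 0. A match is a description of letters only.

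The hedgehog genes included 5 of 13 that fell (38.5%, against 2.12% of all autosomal genes) and none that rose (median −0.18). Dhh, the ligand that Sertoli cells send to interstitial cells, was 7.10, 7.44, 8.08 and 7.15 in control XY and 6.24, 6.15, 6.56 and 6.07 in control XX arrays, a difference of −1.19 ± 0.20 (adjusted p = 0.0106) that was not called with signal contrast as a covariate (adjusted p = 0.16). Ptch1, at once the receptor and a target gene of the pathway, was 11.01, 11.03, 11.54 and 11.42 in control XY and 9.11, 7.89, 7.85 and 8.11 in control XX arrays. It fell by 3.01 ± 0.32 (adjusted p = 0.000323), and the lowest control XY array was still well above the highest control XX array. The ligand-binding antagonist Hhip, another target, fell by 2.63 ± 0.29 (adjusted p = 0.000397). The transcriptional effectors Gli1 and Gli2 fell too (−0.93 ± 0.15 and −1.11 ± 0.13, adjusted p = 0.00592 and 0.000833), while Gli3 (−0.42 ± 0.26, adjusted p = 0.331) and the signal transducer Smo (−0.18, adjusted p = 0.328) overlapped between the groups. All 5 calls held when any 1 array was left out.

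Of the FGF genes that passed, most fell. Fgf9, which Sertoli cells secrete and which restrains Wnt4, was 8.57, 8.98, 8.54 and 8.62 in control XY and 7.59, 7.32, 7.35 and 7.39 in control XX arrays, a difference of −1.27 ± 0.15 (adjusted p = 0.000619). Dusp6 and Spry4, feedback inhibitors induced by FGF signalling through ERK, fell as well (−1.98 ± 0.29 and −1.72 ± 0.18, adjusted p = 0.00407 and 0.000302). The receptor gene Fgfr2 rose by 1.18 ± 0.17 (adjusted p = 0.00375), from 7.46 to 7.84 in control XY to 8.38 to 9.20 in control XX arrays. Of 22 measured FGF ligands, receptors and feedback genes 5 fell (22.7%, against 2.12% of all autosomal genes) and 1 rose (4.5%, against 0.686%). Their median was −0.28, and 3 fell with signal contrast as a covariate. Fgfr1, Fgfr3 and Fgfr4 did not pass (−0.37, 0.17 and 0.27).

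Among transcription factors of the early gonadal ridge there was no common direction. Wt1 and Lhx9, needed to form the ridge in both sexes, differed by 0.05 ± 0.30 and 0.11 ± 0.21 with overlapping arrays (adjusted p = 0.918 and 0.765). Gata4, a partner of NR5A1 in Sertoli cells, differed by −0.99 ± 0.25 and did not pass (adjusted p = 0.063). Nr5a1 itself was 8.79, 9.24, 9.80 and 8.79 in control XY and 7.66, 7.86, 7.75 and 8.29 in control XX arrays, a difference of −1.26 ± 0.25 (adjusted p = 0.0233). That call was lost without control XX 1, control XX 2, control XX 3, control XY 2 or control XY 3, and with signal contrast as a covariate (adjusted p = 0.14). Tcf21, a basic helix-loop-helix factor of interstitial progenitors, was 12.92, 12.78, 13.82 and 12.97 in control XY and 9.04, 10.47, 9.73 and 10.91 in control XX arrays, and fell by 3.09 ± 0.43 (adjusted p = 0.00255). Of 13 genes on this list 2 rose (15.4%, against 0.686% of all autosomal genes) and 2 fell (15.4%, against 2.12%). The rises were Podxl, a surface sialomucin and WT1 target (1.55 ± 0.30, adjusted p = 0.0189), and the homeobox gene Emx2 (1.03 ± 0.22, adjusted p = 0.034). Podxl did not pass without control XX 2, control XX 3, control XY 3 or control XY 4, and Emx2 did not pass without dKO XY 1, control XX 2, control XY 1, control XY 3 or control XY 4.

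Some pre-granulosa regulators rose. Of 15 measured transcription factors and cell cycle inhibitors of pre-granulosa cells 7 rose (46.7%, against 0.686% of all autosomal genes), and 1, the Notch target Hes1, fell by 0.68 ± 0.15 (adjusted p = 0.0337), a call that held only in the fits without dKO XY 2, dKO XY 3 or control XY 4 among those that left out 1 array. The median difference was 0.75. As this list was chosen with earlier results of these data known, its share is a description and not a test. After median centring 4 rose, and Runx1, Cdkn1b and Cdkn1a did not pass (adjusted p = 0.0587, 0.0659 and 0.111). Msx2, a homeobox factor of the BMP pathway, was 7.37, 7.59, 7.23 and 7.80 in control XX and 5.64, 5.88, 6.03 and 6.12 in control XY arrays and rose by 1.58 ± 0.15 (adjusted p = 0.000181). Its relative Msx1 rose by 1.13 ± 0.16 (adjusted p = 0.00311). Runx1, which supports fetal granulosa identity, was 6.95, 6.85, 6.85 and 7.63 in control XX and 5.87 to 6.30 in control XY arrays, a rise of 0.97 ± 0.17 (adjusted p = 0.0111). Irx3, an Iroquois factor of granulosa cells, rose by 0.86 ± 0.14 (adjusted p = 0.00814). Neither Runx1 nor Irx3 passed with signal contrast as a covariate (adjusted p = 0.0863 and 0.0523). Foxl2, the factor that holds granulosa identity in the adult, was 4.96, 5.20, 5.24 and 4.80 in control XX and 4.77, 4.53, 4.65 and 4.53 in control XY arrays. These values were all below the median negative control, and the difference of 0.43 ± 0.15 did not pass (adjusted p = 0.156), although the groups did not overlap. By immunofluorescence the study saw FOXL2 protein in the control ovary at E12.5 and none in the control testis.

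Pre-granulosa signals and products showed the highest share of rises of any list, though the lists were chosen with earlier results of these data known. Fst, follistatin, which binds and blocks activins, was 10.02, 11.71, 10.40 and 11.80 in control XX and 6.48, 6.05, 5.86 and 5.68 in control XY arrays, a rise of 4.96 ± 0.35 (adjusted p = 2.4e-05). Phlda2, an imprinted gene known for restraining placental growth, was 9.35, 11.16, 11.44 and 11.24 in control XX and 6.23, 6.34, 6.06 and 5.91 in control XY arrays, a rise of 4.66 ± 0.36 (adjusted p = 4.16e-05). These were the only genes with a single symbol that rose at least 8-fold, and in both the control XY arrays lay around the median negative control. Sulf1, which trims sulfate from heparan sulfate chains, was 12.14, 12.83, 12.84 and 13.41 against 9.83 to 10.63 and rose by 2.47 ± 0.31 (adjusted p = 0.00115). The protease gene Adamts19 rose by 2.27 ± 0.22 (adjusted p = 0.000183) and Gng13, a G protein gamma subunit, by 2.00 ± 0.27 (adjusted p = 0.00224). Of 24 measured signals and products 16 rose (66.7%, against 0.686% of all autosomal genes) and none fell, with a median of 0.75. Without control XY 2, control XY 3 or control XY 4 the count was 10, after median centring it was 9, and 12 rose with signal contrast as a covariate.

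WNT signalling genes were part of these rises, but ligands, receptors and antagonists as a group had a median difference of −0.03. Wnt4, the ligand on which ovarian development depends, was 8.65, 9.11, 8.76 and 9.12 in control XX and 7.97, 7.79, 8.0 and 8.02 in control XY arrays. It rose by 0.97 ± 0.15 (adjusted p = 0.00438), and the groups did not overlap, but after median centring Wnt4 did not pass (adjusted p = 0.0569). Rspo1, its partner that stabilizes WNT receptors, rose by 0.71 ± 0.15 (adjusted p = 0.0337), but the call was lost in 8 of the 12 fits that left out 1 array, those without dKO XY 1, dKO XY 4, control XX 2, control XX 3, control XX 4, control XY 2, control XY 3 or control XY 4. Of the targets of beta-catenin, Sp5 rose by 1.32 ± 0.14 (adjusted p = 0.000323), from 5.56 to 5.96 in control XY to 6.99 to 7.42 in control XX arrays. Lypd6, which binds WNT co-receptors, rose by 1.37 ± 0.16 (adjusted p = 0.000663). Lgr5, Znrf3 and Fzd1 did not pass (−0.28, −0.08 and −0.18). Among 41 WNT ligands, receptors and antagonists 2 rose, Wnt4 and Rspo1 (4.9%, against 0.686% of all autosomal genes). On this list 3 fell (7.3%, against 2.12%), and the median was −0.03. The falls were Wnt5a, a ligand of the interstitium (−1.44 ± 0.22, adjusted p = 0.00412), and the antagonists Sfrp4 (−1.44 ± 0.15, adjusted p = 0.000322) and Dkk1 (−0.90, adjusted p = 0.0325, lost in 7 of the 12 fits without 1 array, those without dKO XY 1, any control XX array, control XY 2 or control XY 4).

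In the TGF-beta superfamily Fst and Amh lay at the extremes. Of 45 genes 3 rose (6.7%, against 0.686% of all autosomal genes) and 4 fell (8.9%, against 2.12%). Besides Fst the rises were Bmp2, a ligand of the fetal ovary (0.79 ± 0.17, adjusted p = 0.0393), and the receptor gene Bmpr1b (0.45 ± 0.10, adjusted p = 0.0474). Fst was the only rise left without dKO XY 4, control XX 2, control XX 4 or any control XY array. Besides Amh the falls were Tgfbr3, the betaglycan co-receptor of inhibins (−0.89 ± 0.15, adjusted p = 0.0112), the type I receptor gene Acvr1 (−0.79 ± 0.12, adjusted p = 0.00475) and Inha, the inhibin alpha subunit (−0.87 ± 0.18, adjusted p = 0.0269), which did not pass without control XX 1, control XX 3, control XY 2 or control XY 3. Amhr2, the receptor for AMH, differed by 0.07 (adjusted p = 0.844), and Inhba, the beta A subunit, by −0.29 (adjusted p = 0.179). Tgfbr3 did not pass with signal contrast as a covariate (adjusted p = 0.0787).

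Interstitial and steroidogenic genes showed a few large falls. Igfbp7, a secreted binding protein of insulin-like growth factors, was 12.86, 12.67, 13.36 and 12.43 in control XY and 9.35, 9.38, 8.43 and 8.51 in control XX arrays, and fell by 3.91 ± 0.35 (adjusted p = 8.98e-05). It was 1 of 4 falls among 27 interstitial genes (14.8%, against 2.12% of all autosomal genes), with no rise and a median of −0.28. Nr2f2, a marker of interstitial progenitors, differed by −1.24 and did not pass (adjusted p = 0.0822). Of 16 measured Leydig cell and steroid synthesis genes, 3 fell (18.8%) and 1 rose (6.2%, against 0.686% of all autosomal genes). The largest of these falls was that of Hsd17b3 (−4.82), given above as a gene of Sertoli cells, so the share is not one of Leydig cells alone. The rise was that of Thbs2 (0.79 ± 0.13, adjusted p = 0.00749, or 0.0782 with signal contrast as a covariate). Hsd11b2, which inactivates glucocorticoids, fell by 3.05 ± 0.31 (adjusted p = 0.000273). Cyp17a1, the enzyme that opens androgen synthesis, was 8.08, 7.71, 11.31 and 9.03 in control XY and 6.44, 6.44, 6.71 and 6.13 in control XX arrays. Its difference of −2.60 ± 0.58 (adjusted p = 0.0416) was lost in 7 of the 12 fits without 1 array, those without dKO XY 1, dKO XY 4, any control XX array or control XY 4. Star, Cyp11a1 and Hsd3b1 did not pass (−0.64, −1.10 and −1.51, adjusted p = 0.189, 0.161 and 0.0833). In all 3 genes control XX 1 was the highest control XX array (7.61, 7.39 and 9.25 against at most 6.70, 6.11 and 8.02), and the same array held Th, the tyrosine hydroxylase of adrenergic cells, at 8.46 against 6.31 to 6.64. The part of such cells in the results was not tested. Cholesterol synthesis genes did not pass the test in either direction (15 measured, median −0.11, largest difference −0.43), and 3 were lower at an unadjusted p under 0.05 in limma.

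Few germ cell genes differed between the groups. Dazl, an RNA-binding protein that licenses germ cells, was 10.79, 11.12, 12.06 and 11.29 in control XX and 9.25, 9.73, 11.90 and 11.44 in control XY arrays, and its groups overlapped (0.73 ± 0.56, adjusted p = 0.421). The RNA helicase gene Ddx4 and the pluripotency factor gene Pou5f1 also overlapped (0.50 ± 0.49 and 0.20 ± 0.23, adjusted p = 0.53 and 0.594). Of 28 germ cell and pluripotency genes only Ifitm1, an interferon-induced membrane protein of migrating germ cells, passed, with a rise of 1.36 ± 0.18 (adjusted p = 0.00183). This was 3.6% of the list, against 0.686% of all autosomal genes. Without control XX 1, 2 genes of this list rose. None of 9 genes of male germ cell differentiation passed in limma, 3 were lower at an unadjusted p under 0.05, and 1 fell in the linear model without eBayes. Nanos2, their RNA-binding regulator, was 5.68 to 6.46 in control XX and 5.35 to 5.89 in control XY arrays (adjusted p = 0.302).

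Few meiotic genes passed the test, though a larger share rose than among all autosomal genes. Rec8, the cohesin subunit of meiotic chromosomes, was 7.55, 7.78, 7.45 and 7.74 in control XX and 6.70, 6.53, 6.50 and 6.53 in control XY arrays, a rise of 1.06 ± 0.11 (adjusted p = 0.000211) with tight groups. Hormad2, a protein of the meiotic axis, rose by 0.62 ± 0.11 (adjusted p = 0.0137), but not without control XX 3 or control XY 2. Stra8, the gatekeeper of meiotic entry, was 6.10, 6.44, 6.62 and 5.73 against 5.71, 5.52, 5.53 and 5.54, so that all control XX arrays were higher, though the difference of 0.65 ± 0.17 did not pass (adjusted p = 0.0801). The synaptonemal complex gene Sycp3 did not overlap either (0.92 ± 0.25, adjusted p = 0.0877). Of 25 meiotic genes 2 rose (8.0%, against 0.686% of all autosomal genes) and none fell. All control XX arrays were above all control XY arrays for 7 of 25 (against 8.38% of all autosomal genes). The median was 0.27 against 0.08 over all autosomal genes, and it was 0.11 after quantile normalization and 0.10 after median centring. With signal contrast as a covariate 1 meiotic gene rose. Without control XX 1 or control XX 4, 4 meiotic genes rose, and without control XX 3 or control XY 2, 1 did.

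Of the enzymes that set retinoic acid levels, those of the testis fell. Cyp26b1, which breaks down retinoic acid in the fetal testis, was 8.52, 8.56, 8.92 and 8.60 in control XY and 7.07, 6.73, 7.21 and 6.72 in control XX arrays, a difference of −1.72 ± 0.15 (adjusted p = 7.24e-05). Aldh1a1, which makes retinoic acid from retinaldehyde, was 13.45, 13.40, 14.89 and 13.18 in control XY and 9.52, 9.72, 10.28 and 9.43 in control XX arrays and fell by 3.99 ± 0.39 (adjusted p = 0.000185). Its neighbour and near copy Aldh1a7 fell by 2.47 ± 0.37 (adjusted p = 0.00419), and probes for such similar genes may read each other. Aldh1a2, the dehydrogenase of the mesonephros and surface epithelium, differed by −0.26 (adjusted p = 0.506). Of 18 retinoid genes 2 fell (11.1%, against 2.12% of all autosomal genes) and 1 rose (5.6%, against 0.686%). The gene that rose was Crabp2, which binds retinoic acid (0.69 ± 0.16, adjusted p = 0.0424). That rise was lost in 8 of the 12 fits without 1 array, all but those without dKO XY 2, dKO XY 3, control XX 1 or control XX 4. The retinoic acid receptor genes Rara, Rarb and Rarg did not pass (−0.26, 0.27 and 0.07).

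Matrix genes fell more often than they rose. Nid1, a nidogen that links laminin to collagen IV, fell by 1.72 ± 0.27 (adjusted p = 0.00534). The collagen IV genes Col4a1 and Col4a2, which share a promoter region, fell (−1.45 ± 0.22 and −1.07 ± 0.17, adjusted p = 0.0043 and 0.00621), and so did Col18a1, at 8.47, 8.84, 9.08 and 8.64 in control XY and 7.30, 7.09, 7.26 and 7.42 in control XX arrays (−1.49 ± 0.16, adjusted p = 0.000323). Frem1 and Frem2, partners in the Fraser complex of basement membranes, went opposite ways, Frem1 by −1.44 ± 0.14 (adjusted p = 0.000181) and Frem2 by 1.00 ± 0.17 (adjusted p = 0.00972). Of 29 genes for basement membrane and cord matrix 8 fell (27.6%, against 2.12% of all autosomal genes) and 2 rose (6.9%, against 0.686%). Their median was −0.20, with 1 rise left without control XX 3 and 3 without control XX 1. Among 28 other matrix genes 5 fell (17.9%), led by the collagen Col14a1 (−2.58 ± 0.30, adjusted p = 0.000626) and the proteoglycan Vcan (−2.41 ± 0.31, adjusted p = 0.00157). On the same list 1 gene rose (3.6%), and 2 did without dKO XY 2 or control XX 4. The 1 rise with all arrays was Col12a1, a collagen that decorates fibrils, at 8.59, 9.09, 8.04 and 9.17 in control XX and 6.50 to 6.67 in control XY arrays (2.11 ± 0.20, adjusted p = 0.000181).

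Most glutathione transferases of the mu class fell. Gstm1 was 17.27, 17.77, 18.02 and 17.41 in control XY and 13.30, 13.35, 13.63 and 14.46 in control XX arrays and fell by 3.93 ± 0.30 (adjusted p = 4.03e-05). Gstm7, Gstm2 and Gstm6 fell too (−3.35 ± 0.32, −3.28 ± 0.28 and −2.63 ± 0.26, adjusted p = 0.000181, 7.02e-05 and 0.000231). With Gstm3 and Gstm4 these made a run of 6 neighbouring genes on chromosome 3, all lower in control XX. Gstm3 fell by 1.61 ± 0.29 (adjusted p = 0.0133) but not without control XX 2 or control XY 3, and Gstm4 fell by 0.69 ± 0.14 (adjusted p = 0.0283) but not without control XX 1, control XX 2, control XY 1, control XY 2 or control XY 3. Gstm5, in the same cluster, differed by −0.58 ± 0.22 and did not pass (adjusted p = 0.169). These genes are alike in sequence, so how much each probe set reads its neighbours was not tested. Of 27 genes of glutathione metabolism 9 fell (33.3%, against 2.12% of all autosomal genes), none rose and the median was −0.60. Without control XY 3 the count was 5. Gclc, Gss and Gsr, which make and recycle glutathione, did not pass (0.14, −0.01 and −0.18).

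Cystatin genes split. Cstdc1, near Cst9 on chromosome 2, fell by 2.72 ± 0.21 (adjusted p = 4.05e-05). Cst12, in the same gene cluster, was 7.29, 10.31, 9.0 and 8.58 in control XX and 6.72 to 7.17 in control XY arrays, and its rise of 1.91 ± 0.44 (adjusted p = 0.0495) was lost in 11 of the 12 fits without 1 array, all but that without control XX 1. The stefin genes of chromosome 16 were high in some control XX arrays. Csta3 was 7.37, 6.40, 8.28 and 7.23 in control XX against 5.49 to 6.26 in control XY arrays and rose by 1.56 ± 0.31 (adjusted p = 0.024), but not without control XX 1, control XY 2, control XY 3 or control XY 4. It was highest in control XX 3 and lowest in control XX 2. So was S100a8, a calcium-binding protein of neutrophils, at 11.70, 8.43, 15.75 and 12.44 against 5.80 to 6.49 in control XY arrays (5.88 ± 1.49, adjusted p = 0.0668). The part of neutrophils in the rise of Csta3 was not tested.

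**Figure D3:**
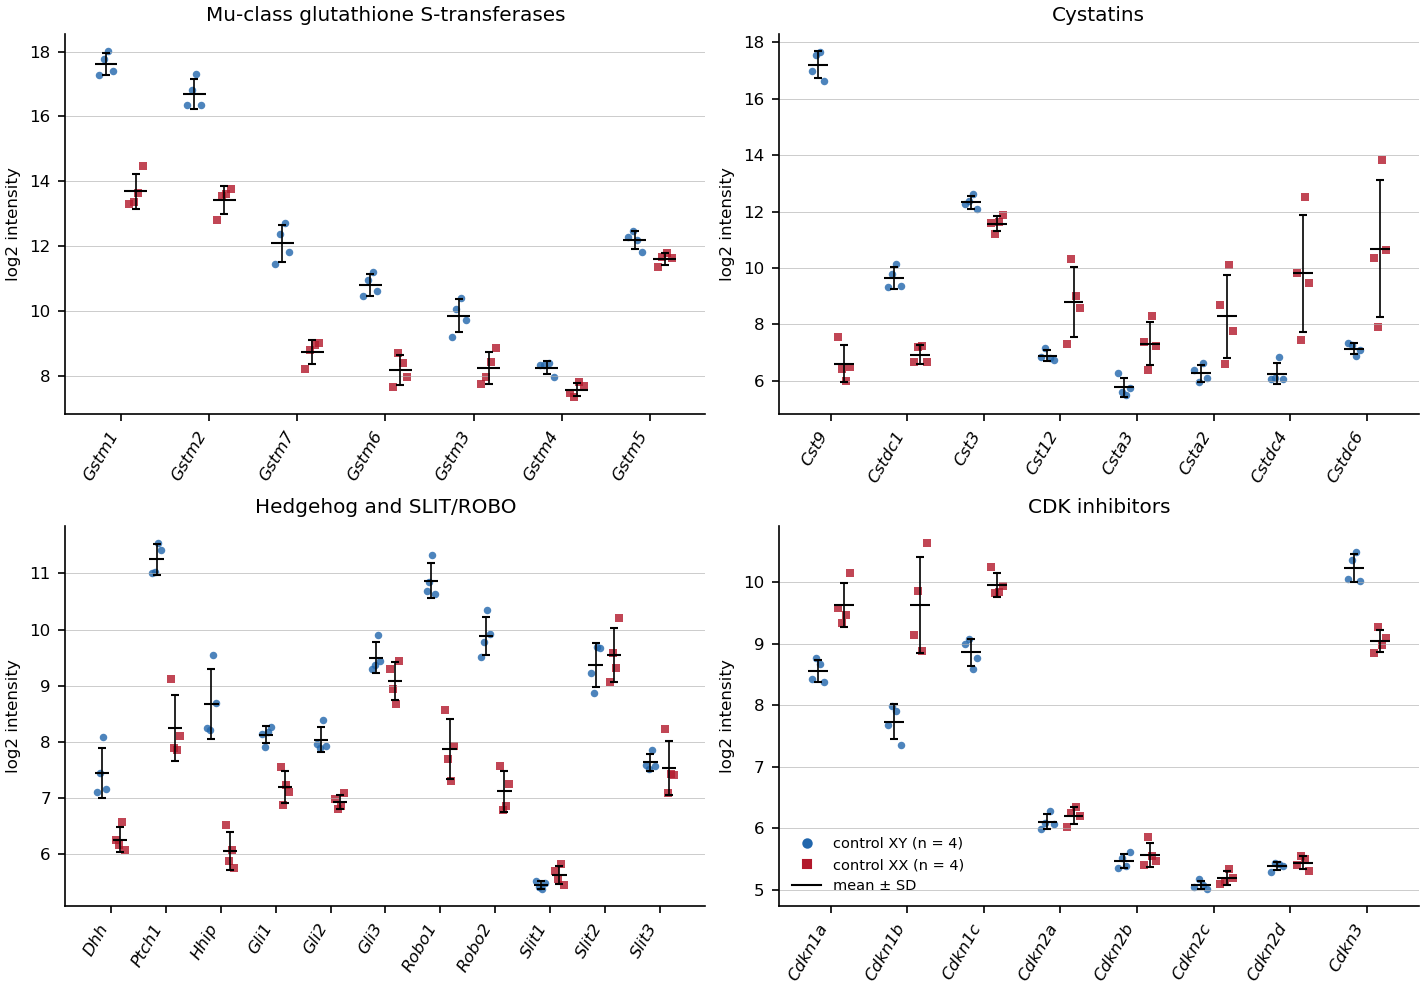
Log2 intensity by gene in the 4 control XY (blue circles) and 4 control XX arrays (red squares), with mean ± SD as black lines, for mu-class glutathione transferases, cystatins and stefins, hedgehog and SLIT/ROBO genes, and CDK inhibitors. Gstm1, Ptch1 and Robo1 are apart between the groups, Cstdc4 and Cstdc6 spread widely within control XX, and Slit2 and Gli3 overlap.

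Of the genes for inhibitors of cyclin-dependent kinases, Cdkn1a, Cdkn1b and Cdkn1c rose. Cdkn1c was 10.24, 9.82, 9.84 and 9.93 in control XX and 8.99, 9.08, 8.58 and 8.77 in control XY arrays, a rise of 1.10 ± 0.15 (adjusted p = 0.00235). Cdkn1b, which marks the cell cycle exit of pre-granulosa cells, was 9.14, 9.85, 8.88 and 10.63 against 7.35 to 7.99 and rose by 1.89 ± 0.36 (adjusted p = 0.0186), but not without control XX 2, control XY 3 or control XY 4. Cdkn1a rose by 1.08 ± 0.21 (adjusted p = 0.0222), but not without control XX 1, control XY 3 or control XY 4. None of Cdkn2a, Cdkn2b, Cdkn2c and Cdkn2d passed. Of 28 cell cycle genes 7 fell and none rose, with a median of −0.83. The mitotic motor gene Cenpe fell by 1.66 ± 0.29 (adjusted p = 0.0109) and Cdk1, the kinase that starts mitosis, fell by 1.26 ± 0.22 (adjusted p = 0.0124). Mki67, a marker of cycling cells, did not overlap (12.14 to 12.70 against 13.38 to 13.91) but did not pass (adjusted p = 0.0545). This count rested on single arrays. It was 2 without control XX 2, control XX 3, control XY 2 or control XY 3 and 14 without dKO XY 2 or dKO XY 3. With the 8 control arrays only, 14 fell. With signal contrast as a covariate 2 genes fell, and none fell in the linear model without eBayes, which is nearest to the methods' test.

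Robo1 and Robo2, genes for receptors of SLIT proteins known from axon guidance, fell. Robo1 was 10.68, 10.84, 11.33 and 10.64 in control XY and 8.57, 7.70, 7.29 and 7.92 in control XX arrays (−3.0 ± 0.29, adjusted p = 0.000181), and its neighbour Robo2 fell by 2.78 ± 0.23 (adjusted p = 5.69e-05). The genes for their ligands, Slit1, Slit2 and Slit3, overlapped between the groups (0.18, 0.17 and −0.10). Among binding proteins of insulin-like growth factors, Igfbp3 fell by 2.23 ± 0.32 (adjusted p = 0.00309) beside Igfbp7, and Igfbp2 rose by 1.05 ± 0.18 (adjusted p = 0.00886). Cbln1 fell by 2.11 ± 0.27 (adjusted p = 0.0015) beside its relative Cbln4.

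The 20 largest falls also held metabolic genes outside these lists. Gatm, the first enzyme of creatine synthesis, fell by 3.60 ± 0.41 (adjusted p = 0.000607), from 10.94 to 12.16 in control XY to 7.38 to 8.77 in control XX arrays. Me1, the cytosolic malic enzyme that supplies NADPH, fell by 3.08 ± 0.27 (adjusted p = 8.86e-05). Akr1b8, an aldo-keto reductase, fell by 3.02 ± 0.31 (adjusted p = 0.000302). Mybl1, a transcription factor known from spermatocytes, fell by 3.20 ± 0.25 (adjusted p = 4.16e-05), and Stox2, a winged-helix protein, fell by 3.06 ± 0.23 (adjusted p = 4.03e-05). All 20 of the largest falls were called in every fit that left out 1 array. They were picked by size from the same arrays, so this is a description and not a test. Among the 20 largest rises this did not hold for Cst12 and Cdkn1b, as given above.

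The 20 largest rises named several genes of signalling and of the cell surface. Lrrn1, a transmembrane protein with leucine-rich repeats, was 8.72, 9.66, 9.27 and 8.91 in control XX and 6.61 to 7.07 in control XY arrays and rose by 2.25 ± 0.18 (adjusted p = 5.14e-05). Actr6, an actin-related protein of chromatin remodelling, rose by 2.03 ± 0.32 (adjusted p = 0.00606). Ereg, the EGF receptor ligand epiregulin, rose by 1.79 ± 0.25 (adjusted p = 0.00294), with control XX 4 at 9.34 above the others at 8.17 to 8.34. Tnfrsf19, a receptor of the tumour necrosis factor family, rose by 1.63 ± 0.19 (adjusted p = 0.000564), Calcoco2, an autophagy receptor, by 1.66 ± 0.17 (adjusted p = 0.000302), and the long non-coding RNA Rmst by 1.76 ± 0.23 (adjusted p = 0.00175). The potassium channel gene Kcnd2 rose by 1.71 ± 0.26 (adjusted p = 0.00524).

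**Figure D4:**
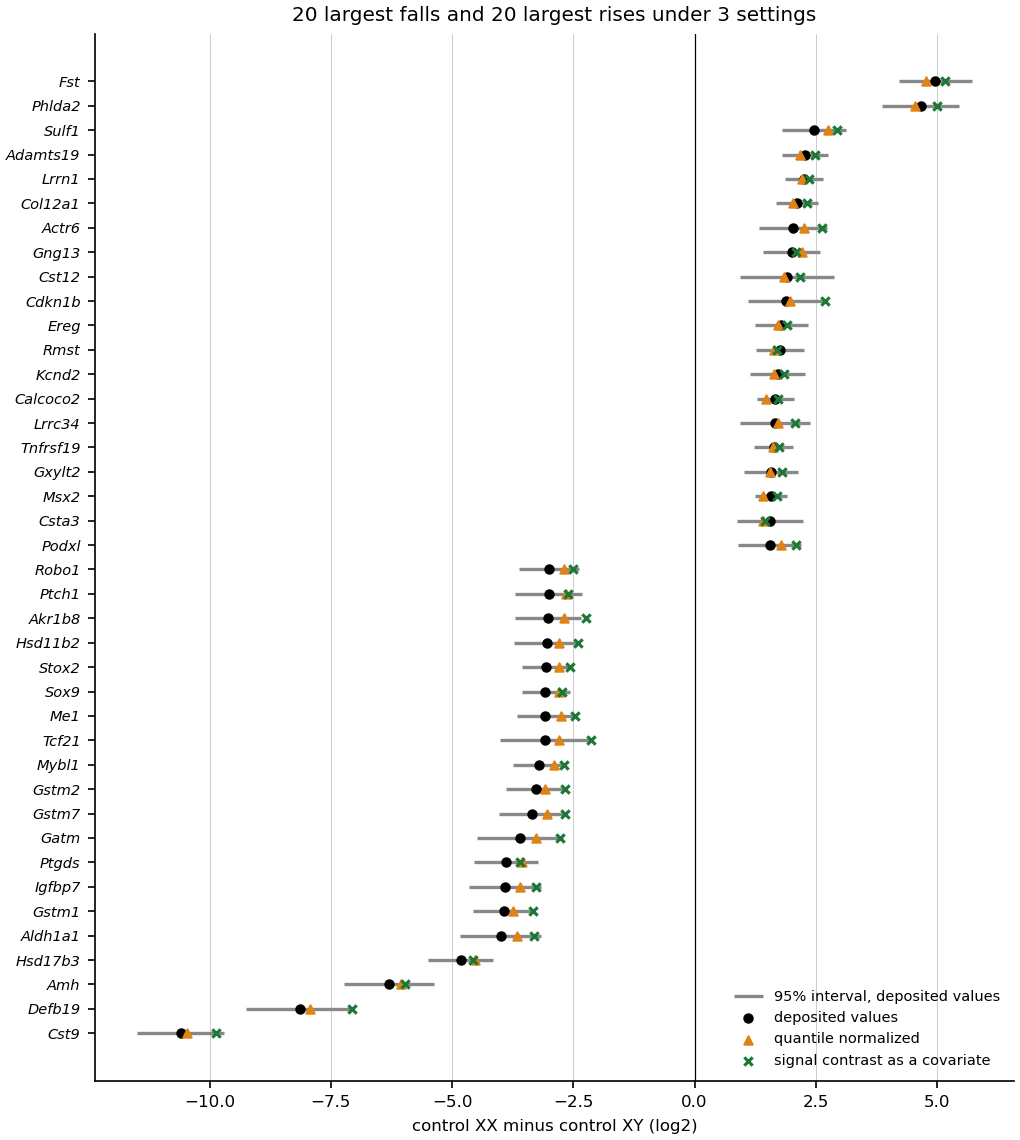
Difference between control XX and control XY (log2, horizontal axis) for the 20 genes that fell most and the 20 that rose most, with the 95% interval on the deposited values (grey line), the value on the deposited data (black circle), after quantile normalization (orange triangle) and with signal contrast as a covariate (green cross). The 3 values of a gene lie on the same side of 0 in every gene shown.

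Genes that mark other cell types of the gonad mostly did not pass, but some of these lists held larger shares of calls than all autosomal genes. Those shares were 2.12% that fell and 0.686% that rose. Of 26 endothelial genes 4 fell (15.4%) and none rose (median −0.35), and 25 of the differences were negative. For 12 of the 26 all control XX arrays were below all control XY arrays, against 9.57% of all autosomal genes. Efnb2, the ligand of arterial cells, led the falls (−1.15 ± 0.18, adjusted p = 0.00575). The defining markers Pecam1 and Kdr differed by −0.25 and −0.45 and Cdh5 by −1.37 (adjusted p = 0.456, 0.231 and 0.0534). The endothelial count moved between 1 and 8 with 1 array left out: it was 1 without dKO XY 1, control XX 1, control XX 3, control XY 2, control XY 3 or control XY 4, 2 without dKO XY 4, control XX 2 or control XY 1, and 8 without dKO XY 2. None of 19 macrophage, 10 erythroid and 13 neural genes passed in limma or in the linear model without eBayes, while at an unadjusted p under 0.05 in limma 8 macrophage and 3 neural genes were higher and 1 erythroid gene was lower. Macrophage genes all lay above or at 0, with a median of 0.23 against 0.08 over all autosomal genes, which became 0.10 after quantile normalization and 0.06 after median centring. For 7 of the 19 all control XX arrays were above all control XY arrays, against 8.38% of all autosomal genes. Of 12 mesonephric genes 1 rose (8.3%), Calb1, a calcium-binding protein (1.30 ± 0.19, adjusted p = 0.00357). Calb1 did not pass with signal contrast as a covariate (adjusted p = 0.0517). The defining mesonephric marker Pax2 was at 5.51 to 5.85 in all control arrays, below the median negative control, and Pax8 at 6.15 to 6.70. With dKO XY 2 or dKO XY 3 left out 2 mesonephric genes rose, and with dKO XY 3 or control XX 4 left out 1 macrophage gene did. Of 16 surface epithelium genes 1 fell (6.2%), the uroplakin gene Upk1b (−0.72 ± 0.15, adjusted p = 0.0296). That call was lost without control XX 1, control XX 2, control XX 4, control XY 2 or control XY 3. The related gene Upk3b overlapped (−0.41, adjusted p = 0.464). None of 16 ribosomal protein genes passed (median −0.04), and none had an unadjusted p under 0.05 in limma. Of 13 smooth muscle genes 3 fell (23.1%). Of these Smtn, smoothelin (−0.71 ± 0.12, adjusted p = 0.0116), fell whichever array was left out but not with signal contrast as a covariate (adjusted p = 0.131), where none of the list passed. The list's count was 1 without dKO XY 1, control XX 1, control XX 3, control XX 4 or control XY 4. Of 25 immediate early and stress genes 3 fell, led by the matricellular gene Ccn1 (−1.27 ± 0.22, adjusted p = 0.00985), and 5 did without control XY 1. With signal contrast as a covariate none passed (adjusted p = 0.137 for Ccn1). Of 26 junction and adhesion genes 2 fell (7.7%) and 1 rose (3.8%), Cgn, cingulin of tight junctions (0.97 ± 0.18, adjusted p = 0.0139). No junction gene fell without control XX 1, control XX 3, control XY 2 or control XY 3, and 1 fell without dKO XY 1, control XX 2, control XX 4 or control XY 4.

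**Figure D5:**
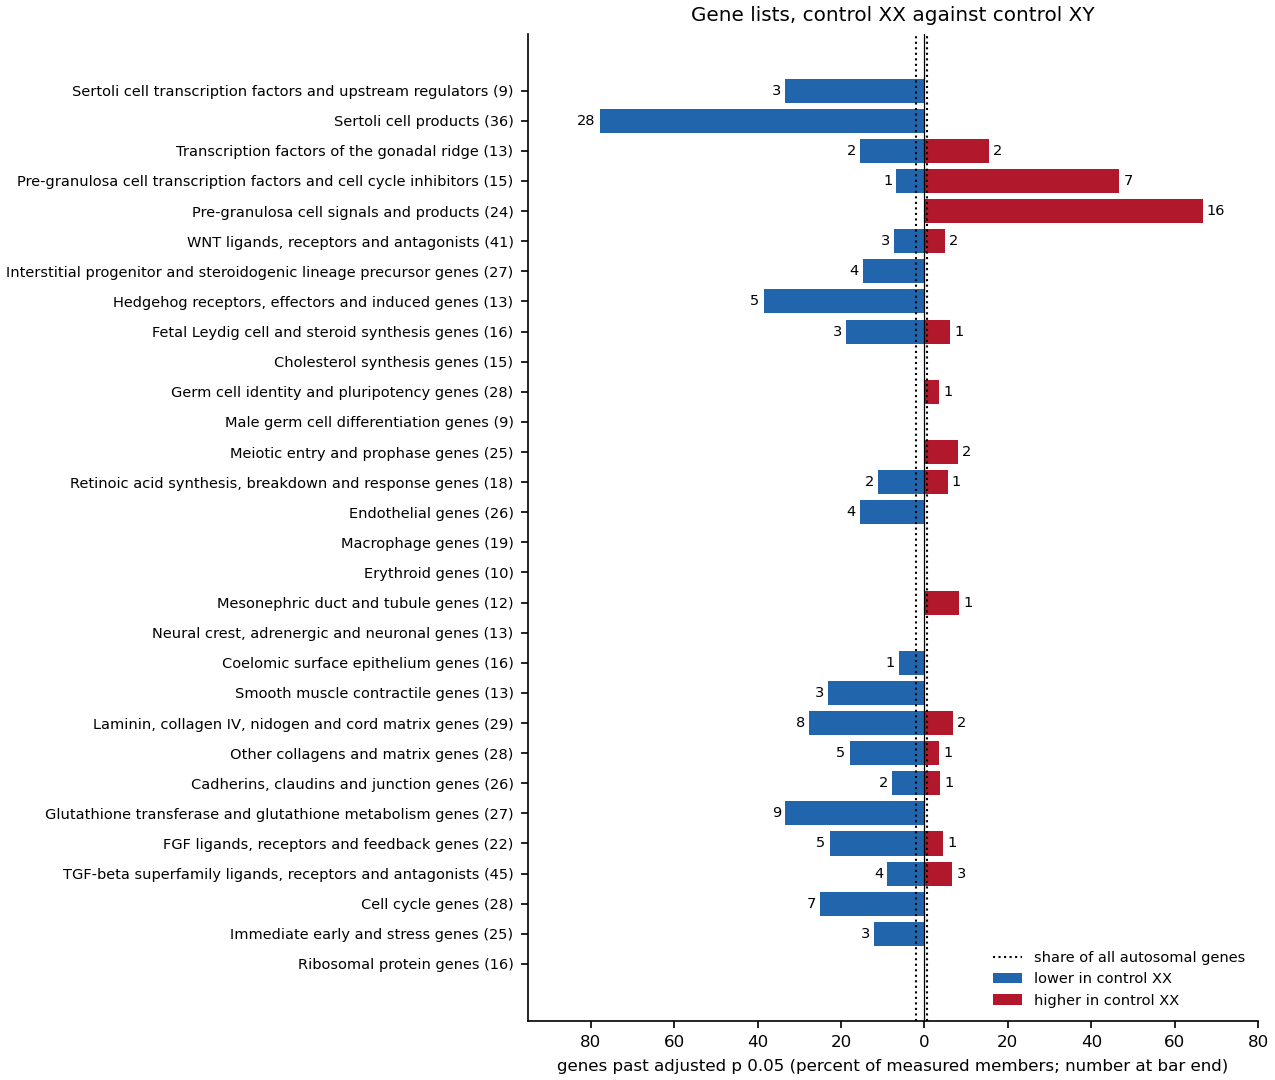
Share of measured genes of each list (percent, horizontal axis) that fell (blue, to the left) or rose (red, to the right) in control XX, with the number of genes at the end of each bar and the number measured beside each list's name. Dotted lines mark the share of all autosomal genes, 2.12% that fell and 0.686% that rose. Sertoli cell products have the longest bar on the left (28 of 36) and pre-granulosa signals and products the longest on the right (16 of 24). The lists were chosen with earlier results of these data known.

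Further genes lost their call with signal contrast as a covariate. Among the rises these were Cst12, Emx2, Rspo1, Bmpr1b, Hormad2, Crabp2 and Csta3 (adjusted p = 0.2, 0.148, 0.0709, 0.258, 0.117, 0.286 and 0.238). Among the falls they were Hes1, Dkk1, Inha, Cyp17a1 and Aldh1a7 (adjusted p = 0.349, 0.313, 0.333, 0.362 and 0.0552). The falls of Gstm3, Gstm4, Upk1b, Irs2 and Rab20 were lost too (adjusted p = 0.193, 0.303, 0.173, 0.0632 and 0.0956). After median centring the rises of Podxl, Emx2, Rspo1, Bmp2, Bmpr1b, Hormad2, Crabp2, Frem2, Igfbp2, Cgn and Cst12 did not pass (adjusted p from 0.0618 for Igfbp2 to 0.212 for Bmpr1b). After quantile normalization the calls of Cst12, Hes1, Bmp2, Bmpr1b, Inha, Crabp2, Gstm4, Csta3 and Upk1b were lost (adjusted p from 0.0707 for Csta3 to 0.268 for Bmpr1b). Fst, Phlda2, Cst9, Defb19, Amh and Sox9 passed with the covariate and after median centring.

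The changes were spread over the genome. The share of clusters called lay between 1.26% on chromosomes 4 and 12 and 2.80% on chromosome 3. Protein-coding genes made up most of the calls, with 156 rises (0.848%) and 578 falls (3.14%) among 18399. Among all autosomal genes these shares were 0.686% and 2.12%. The 3241 long non-coding RNA genes held 13 rises (0.401%) and 6 falls (0.185%), both smaller shares than among all autosomal genes. Among 18344 pairs of neighbouring genes in the RefSeq order, 52 were called in the same direction and 9 in opposite directions. Besides the Gstm run, Irs2, Col4a1, Col4a2 and Rab20 on chromosome 8 formed a run of 4 falls, of which Rab20 was not called without control XX 1, control XY 3 or control XY 4. Of the clusters without a symbol, 153 rose (0.488%, against 0.597% of all autosomal clusters) and 184 fell (0.587%, against 1.34%). The largest fall was that of TC0100000690.mm.1 (−5.69 ± 0.44, adjusted p = 4e-05) and the largest rise that of TC1800000594.mm.1 (3.91 ± 0.40, adjusted p = 0.00028).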

How the data were processed

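RNA of E12.5 gonads from 12 embryonic samples (4 control XX, 4 control XY, 4 dKO XY) was amplified and hybridised to Clariom D mouse arrays, 1 array per sample. The deposited values are log2 intensities per probe set that the authors normalized, by RMA according to the methods, with the replicates kept apart. The background correction and summary behind the table, and its genome build, are not given in the sources used here. No batch, scan order or read depth applies or is given, and the number of arrays limits the precision. Each array was grouped by its labels.

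The deposited log2 values were fitted as 3 group means with limma 3.58.1 (lmFit and eBayes, R 4.3.3), without further normalization, and control XX minus control XY was tested with Benjamini-Hochberg adjustment over 65956 transcript clusters, at an adjusted p under 0.05. This one-way model over the 3 groups follows the methods. The script was tested on simulated data with known changes. X and Y clusters (3391 and 558) were left out of the comparison. Clusters were named through the platform annotation, with symbols updated through RefSeq. Of the autosomal clusters 29077 had 1 symbol, 1228 several and 31330 none, and only the first were named, 1 cluster per symbol. Genes of a list without such a cluster were not counted. The chromosome of the cluster was that of RefSeq for 99.69% of 29074 named clusters. Promoters came from a RefSeq table of GRCm38.p6. Plots and counts used Python 3.11.15, pandas 2.3.3, numpy 2.4.6 and matplotlib 3.10.9.

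The genes named were the 20 of largest change in each direction, without predicted genes, small RNAs and pseudogenes, up to 6 members per list past the test with contrasting members that were not, a fixed set of sex-determination genes, and cell type markers. The members and lists were chosen with earlier results of these data known. Some genes, such as Fst and Tcf21, were on more than 1 list, so the counts of the lists are not independent. S100a8 and the other neutrophil genes, Robo2, the Slit, Igfbp and Cdkn2 genes and the neighbouring genes were named after their values were seen. The alternatives were 8 control arrays only, quantile normalization, median centring, a one-way ANOVA without eBayes, filters on dim clusters, signal contrast as a covariate, an intensity trend, array weights, the replicate number as a block, adjustment over autosomal clusters, a fold threshold of 2, another cluster rule per symbol, and leaving out each array.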

Additional observations from a re-analysis of the deposited data

Results flagged for a closer look

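Over 146 named genes, each control group of 4 arrays was searched for 1 array far from the other 3, and 20 of 292 groups were found. Chance gives about 1 in 20 groups.

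In control XY 3 the distant values were high. Defb19 was 17.21 (others 16.63 to 16.66), Aldh1a1 14.89 (13.18 to 13.45), Col4a1 9.23 (8.35 to 8.43) and Gli2 8.38 (7.89 to 7.96). The smooth muscle actin gene Acta2 was 12 (9.43 to 9.72). Of the steroid synthesis genes, Cyp11a1 was 8.71 (6.94 to 7.24) and Hsd3b1 10.81 (9.13 to 9.35). This array also had the highest signal contrast of the 12.

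In control XX 1, Phlda2 was low at 9.35 (11.16 to 11.44), whereas Cyp11a1 at 7.39 (5.99 to 6.11), Th at 8.46 (6.31 to 6.64) and Crabp2, a retinoic acid binding protein, at 7.66 (6.88 to 6.97) were high. In control XX 4, Ereg was 9.34 (8.17 to 8.34), Runx1 7.63 (6.85 to 6.95) and Etv5 8.69 (7.87 to 7.98), and Sfrp4 was low at 5.81 (6.12 to 6.16).

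In control XX 3, Hsd17b3 was 7.37 (6.99 to 7.04) and Tgfbr3 7.40 (7.63 to 7.66). In control XX 2 the embryonic globin gene Hbb-y was 19.79, with the others at 19.93. That is also the highest value of the data, and whether an upper limit of the scale set this flag was not tested. In control XY 1, Col14a1 was 8.86 (9.92 to 10.09) and Stra8 5.71 (5.52 to 5.54).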

How the results depend on the processing

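Of 111 named genes past the test, 80 passed in every fit without 1 array, and no difference of a called gene changed sign. Quantile normalization kept 98, median centring 93 and signal contrast as a covariate 74. The 368 rises and 826 falls over clusters became 132 and 771 after median centring, 130 and 238 with the covariate, 260 and 479 by ANOVA without eBayes, 6 and 71 above the 95th percentile of the negative controls, 135 and 468 at a fold of at least 2, and 3117 and 2982 with array weights. With 1 array left out, rises ranged from 146 to 527 and falls from 382 to 1174, the lowest without control XY 3 and the highest without dKO XY 2. The cause was not tested. Clusters above the median negative control, a filter chosen after seeing the data, gave 341 and 1072. The replicate block gave 262 rises and 630 falls and kept 97 of the 111 genes. The 8 control arrays only, without the dKO XY arrays, gave 332 rises and 1018 falls and kept 98 of the 111 genes. Samples of the same number did not deviate together (correlations of 0.154, −0.085, −0.325 and 0.254), so the numbers were not taken as pairs. Genes near the negative controls in both groups, such as Foxl2, could show little difference on this array.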

Other observations

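Calprotectin and stefin genes, known from neutrophils, differed widely among the control XX arrays, whereas most other genes of a neutrophil list did not. This list was drawn up after values of some of its genes had been seen, so it was given no test of its own, and p-values are those over all clusters. S100a9, which pairs with S100a8 as calprotectin, was 11.96, 8.21, 15.59 and 12.04 in control XX and 6.88 to 7.40 in control XY arrays (4.88 ± 1.33, adjusted p = 0.0845). The stefin gene Stfa1 was 10.84, 7.51, 14.68 and 11.97 in control XX and 6.63 to 7.05 in control XY arrays (adjusted p = 0.129). Stfa3 was 9.98, 7.92, 12.51 and 8.67 (3.51, adjusted p = 0.0507). In these 3 genes control XX 3 was the highest array and control XX 2 the lowest of the 4, yet every control XX array was above every control XY array. Camp, a granule peptide, was 9.19 in control XX 3 and 7.18 to 7.75 in the other control XX arrays. Of the other granule genes some did not overlap between the groups, by small differences that did not pass, among them Ngp (0.58, adjusted p = 0.188), Lcn2 (0.41, adjusted p = 0.15), Ltf (0.34, adjusted p = 0.161) and Prtn3 (0.28, adjusted p = 0.154). Others overlapped. Mpo, myeloperoxidase, differed by −0.04 (adjusted p = 0.907), Elane, neutrophil elastase, by 0.07 (adjusted p = 0.765) and Ly6g by 0.32 (adjusted p = 0.422).

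Of 838 measured autosomal microRNA genes 10 rose and 1 fell, 1.19% and 0.119% against 0.686% and 2.12% of all autosomal genes. Their median difference was 0.246 against 0.083 over all autosomal genes and 0.181 over genes with a mean under 6. Falls were most frequent among genes of middle brightness. Of genes with a mean between 8 and 10, 6.11% fell and 0.87% rose, whereas under 6 the shares were 0.05% and 0.37%.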
